A study of Mus musculus with 15 samples.

Results

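Excitation-contraction coupling and calcium handling were followed through 10 genes whose products release, pump and buffer calcium in muscle fibres: Ryr1, Cacna1s, Atp2a1, Atp2a2, Casq1, Casq2, Pvalb, Sln, Pln and Jph1. They were taken by gene name from the 55536 genes of the deposited tables, and all 10 were found and passed the filter on low values. The 15 samples were skeletal muscle RNA of male mice aged 2 months, in 3 groups of 5: wild-type controls, mice labelled PdgfrB knock out and mice labelled PdgfrB D489V, an allele that the submitters describe as constitutively active. Pdgfrb encodes a receptor for platelet-derived growth factor, and per the submitters' design text both alleles were specific to myogenin-expressing cells, that is, to cells of the muscle lineage. The muscle, the strain, the litter and whether the controls carried a driver allele are not given in the sources used here, and no source says that the samples came from separate mice, so p-values measure the spread between these samples.

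A muscle fibre contracts when an action potential runs down its transverse tubules and the voltage sensor there opens calcium release channels in the facing membrane of the sarcoplasmic reticulum. Calcium pumps then return the ion to the reticulum, where calsequestrins hold it, while parvalbumin binds it in the cytosol of fast fibres. Fast and slow fibres use different pump genes and differ in their balance of calsequestrins. The balance of these transcripts is thus a textbook sign of fibre type. References are the slow myosin heavy chain gene Myh7 and the fast genes Myh2, Myh1 and Myh4.

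The samples held 29815559 to 36489777 normalized counts each, values that the authors had normalized and rounded to whole numbers, and the depth of sequencing is unknown from them. Skeletal muscle identity was clear in all 15 samples, where Myh4, a fast myosin heavy chain gene, held 2041993 to 2875640 normalized counts. Of 7 cardiac markers, Nppa was at 0 throughout and Nppb and Myl7 stayed below 10. The rest were detected, with Myh6 at 155 to 2073 normalized counts, Tnnt2 at 156 to 448, Myl4 at 101 to 321 and Tnni3 at 11 to 43. The highest Myh6 value was in knockout replicate 4. Pdgfrb itself held 1673 to 1848 normalized counts in control, 958 to 1628 in knockout and 820 to 1062 in D489V, so that RNA of the targeted gene was lower in D489V than in the group labelled knockout. In D489V against control its log2 change was -0.96 (limma adjusted p 0.00168), and in knockout against control it was -0.45 (limma adjusted p 0.294). Knockout replicate 3, labelled male, held 3165 normalized counts of Xist, the RNA that silences an X chromosome in females, against at most 101 elsewhere. The counts of called members and of called pathway genes below are also given without it. Those of the single pathway lists and of the cell markers are not.

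The sequences just upstream of 5 members are shown, chosen for 2 of the patterns described below. The calsequestrin genes Casq1 and Casq2 differed in how they varied, and Ryr1, Cacna1s and Atp2a1 varied together. RefSeq promoter windows (GRCm38.p6) were found for 7 of the 10 members, and not for Atp2a2, Sln and Jph1. Atp2a2 and Sln, which followed Myh7, and Jph1, which varied with Ryr1, are therefore not shown. Each line gives up to 250 bases before the annotated start, 5′ to 3′ on the gene's strand, without the bases that GENCODE places inside the gene. Capitals mark E-boxes (CANNTG, the site of MyoD family factors) and matches to the MEF2 consensus, searched on both strands, and no match overlapped another. Positions are counted back from the RefSeq start.
Casq2 (chr3:102086165-102086414, plus strand): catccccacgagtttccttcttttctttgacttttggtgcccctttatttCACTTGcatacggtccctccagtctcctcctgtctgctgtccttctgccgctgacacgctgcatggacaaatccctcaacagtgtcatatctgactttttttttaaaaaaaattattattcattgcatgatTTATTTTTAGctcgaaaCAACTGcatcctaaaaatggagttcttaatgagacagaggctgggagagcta
Casq1 (chr1:172219896-172220145, minus strand): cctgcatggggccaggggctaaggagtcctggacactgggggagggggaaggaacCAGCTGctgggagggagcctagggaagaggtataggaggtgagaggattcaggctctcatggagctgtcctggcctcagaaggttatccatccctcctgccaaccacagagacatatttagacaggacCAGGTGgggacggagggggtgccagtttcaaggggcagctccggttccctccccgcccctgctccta
Ryr1 (chr7:29125180-29125401, minus strand): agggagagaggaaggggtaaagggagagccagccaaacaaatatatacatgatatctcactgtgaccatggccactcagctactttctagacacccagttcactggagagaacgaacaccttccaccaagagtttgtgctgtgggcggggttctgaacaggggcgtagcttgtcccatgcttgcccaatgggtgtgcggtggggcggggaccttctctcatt
Cacna1s (chr1:136052561-136052749, plus strand): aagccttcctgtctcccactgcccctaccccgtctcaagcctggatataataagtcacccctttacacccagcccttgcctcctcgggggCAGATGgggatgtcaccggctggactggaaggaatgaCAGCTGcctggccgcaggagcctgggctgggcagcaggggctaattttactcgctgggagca
Atp2a1 (chr7:126463109-126463323, minus strand): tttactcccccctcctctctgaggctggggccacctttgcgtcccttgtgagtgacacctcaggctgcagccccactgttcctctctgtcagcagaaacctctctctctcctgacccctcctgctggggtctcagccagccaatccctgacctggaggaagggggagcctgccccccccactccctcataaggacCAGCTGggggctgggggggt
Over the full 250 bases of the first window listed for each member, an E-box was present in 5 of 7, against 66.2% of 32851 promoter windows. Ryr1 and Pvalb had none there, while a second window of Pvalb held 1 (CATGTG, positions -111 to -106). The other motif counts also refer to first windows. A MEF2 match was present in 2 of the 7, Casq2 (positions -69 to -60) and Pvalb (positions -180 to -171), against 2.92% of all windows. The E-box of the letters CAGCTG stood in the Casq1, Cacna1s and Atp2a1 windows, while those of Casq2 read CACTTG and CAACTG. The share of all windows with CAGCTG was not counted, so this contrast only describes the letters. The core letters GGAAA, read by NFAT factors, were in Casq2 and Pln, against 55.6% of windows, and the CArG box, read by serum response factor, was in none of the 7, against 1.47%. A match describes letters in these windows and was not tested as a binding site.

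Per kilobase of annotated exon, Pvalb, Atp2a1 and Casq1 stood far above the others. Pvalb, the cytosolic calcium buffer of fast fibres, was highest, with a median level of 406288 normalized counts per kilobase over the 15 samples. Atp2a1, the calcium pump of fast fibres, followed at 315652, but was below Pvalb in only 10 of 15 samples, so these neighbours in the order were not separated. Casq1, the more abundant calsequestrin transcript here, came next at 85932 per kilobase, and its range overlapped neither neighbour. Ryr1, the calcium release channel, and Cacna1s, the pore and voltage-sensing subunit of the tubule calcium channel, lay close together at 5198 and 4794 per kilobase, with Ryr1 above in 10 of 15 samples. Jph1, junctophilin, which ties the tubule to the reticulum, held 2392 per kilobase and was above Atp2a2, the pump of slow fibres and heart, at 1653, in 10 of 15 samples. Casq2, a calsequestrin of slow fibres and heart, was lower at 610. Sln and Pln, small membrane peptides that restrain the pumps, closed the order at 110 and 22.8 per kilobase, with Sln above Pln in 14 of 15 samples.

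**Figure D1:**
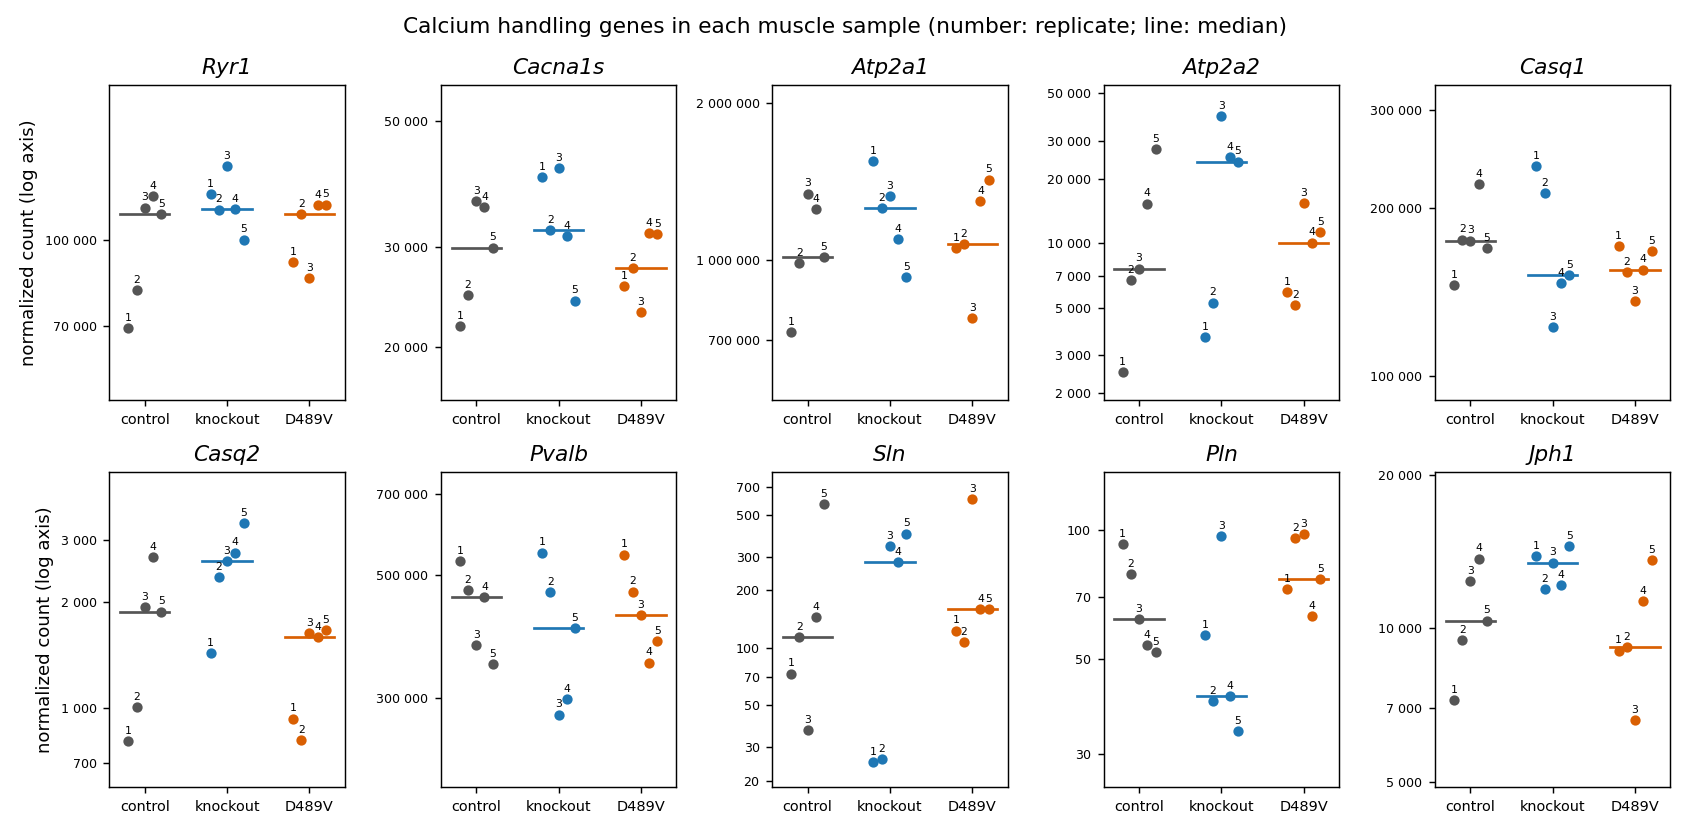
Normalized count of each of the 10 genes (log axis) in every sample of the control, knockout and D489V groups, with replicate numbers and group medians as lines. Groups overlap in all 10 panels, and Atp2a2 and Sln spread over the widest range, from 2503 to 39057 and from 25 to 602 normalized counts.

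The release machinery comprised Ryr1, Cacna1s and Jph1. Ryr1 (ENSMUSG00000030592, GRCm38 chromosome 7, 29003344 to 29125179, minus strand) held 69334, 81299, 114385, 119885 and 111219 normalized counts in controls 1 to 5. The knockout samples held 121081, 113519, 136176, 113867 and 100161, and the D489V samples 91236, 111214, 85338, 115786 and 115855. Controls 1 and 2 were the lowest of all samples, and the 3 groups overlapped. Cacna1s (ENSMUSG00000026407, chromosome 1, 136052750 to 136119822, plus strand) held 21788, 24697, 36142, 35327 and 29935 in control, with controls 1 and 2 again below the other controls. Knockout samples held 39809, 32147, 41329, 31398 and 24157, and D489V samples 25649, 27536, 23059, 31698 and 31573. The ratio of Cacna1s to Ryr1 per kilobase was 0.897 to 1.05 in control, 0.804 to 1.1 in knockout and 0.826 to 0.937 in D489V, a narrow range. That it lies near 1 rests on the lengths used, all annotated exon bases merged, 21.84 kb for Ryr1 and 6.55 kb for Cacna1s.

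Jph1 (ENSMUSG00000042686, chromosome 1, 16964560 to 17097889, minus strand) held 7238, 9500, 12365, 13703 and 10361 normalized counts in control. Knockout samples lay at 13874, 11954, 13446, 12148 and 14472, a narrow and high range that overlapped the upper controls. D489V samples lay at 9049, 9195, 6614, 11320 and 13587, and the highest of them, replicate 5, reached into the knockout range. Jph1 was 0.44 higher in knockout than in D489V on the log2 scale (95% interval 0.09 to 0.79, limma adjusted p 0.0691), which missed the threshold. Without D489V replicate 5 the difference was 0.56 and passed (limma adjusted p 0.0198). Over the 10 fits that left out 1 replicate, the Jph1 adjusted p in limma ran from 0.0198 to 0.142. Jph1 passed in 2 of all 21 alternatives.

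The pumps differed greatly in how steady they were. Atp2a1 (ENSMUSG00000030730, chromosome 7, 126445858 to 126463108, minus strand) held 725384 to 1341119 normalized counts in control, 927051 to 1550569 in knockout and 772113 to 1426590 in D489V, at most 2.14-fold between any 2 samples. Atp2a2 (ENSMUSG00000029467, chromosome 5, 122453513 to 122502225, minus strand) held 2503, 6751, 7605, 15277 and 27427 in controls 1 to 5, 11-fold within 1 group. In knockout it held 3653, 5284, 39057, 25226 and 23991, so that replicates 3 to 5 were far above replicates 1 and 2. D489V samples held 5889, 5136, 15404, 10050 and 11243, all inside the control range. Per kilobase, Atp2a1 exceeded Atp2a2 by 59.3-fold in knockout replicate 3 and by 742-fold in knockout replicate 1, samples that carry the same label. Only 6.71% of the variance of log2 Atp2a2 lay between the 3 groups.

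Both peptide regulators of the pumps were scarce. Sln (ENSMUSG00000042045, chromosome 9, 53850164 to 53854560, plus strand) held 73, 114, 37, 145 and 567 normalized counts in control. Knockout samples held 25, 26, 341, 283 and 398, and D489V samples 123, 107, 602, 160 and 160. Control 5, knockout 3 to 5 and D489V 3 held the 5 highest values, so high samples occurred in every group. Pln (ENSMUSG00000038583, chromosome 10, 53337667 to 53345987, plus strand) held 93, 79, 62, 54 and 52 in control, 57, 40, 97, 41 and 34 in knockout and 73, 96, 98, 63 and 77 in D489V. Knockout replicate 3 was the exception in its group, at a level near D489V 2 and 3 and control 1. Exons of Pln overlap 2 genes on the opposite strand, Cep85l at 635 to 2118 normalized counts and Gm47644 at up to 177. The strand setting of the counting is not given in the sources used here, so the low Pln values are uncertain. Pln was lower in knockout than in D489V, with a log2 difference of -0.67 (95% interval -1.25 to -0.10, limma adjusted p 0.0872), while Cep85l had a log2 difference of 0.47 (limma adjusted p 0.19). Without knockout replicate 3 the Pln difference was -0.91 and passed (limma adjusted p 0.0185). Over the 10 fits that left out 1 replicate, the Pln adjusted p in limma ran from 0.0185 to 0.178. Pln passed in 2 of all 21 alternatives. Mrln, a related micropeptide gene of fast muscle named here after its values were seen, held 902 to 1898 normalized counts.

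Among the buffers, Casq2 was the only member that passed the test in any comparison. Casq2 (ENSMUSG00000027861, chromosome 3, 102086415 to 102146514, plus strand) held 1436, 2365, 2625, 2770 and 3362 normalized counts in knockout and 933, 812, 1636, 1591 and 1669 in D489V. All D489V samples lay below 4 of the 5 knockout samples, and knockout replicate 1 lay within the D489V range. Controls held 806, 1006, 1935, 2683 and 1882, with controls 1 and 2 near the low D489V samples and controls 3 to 5 nearer to the knockout range. Casq1 (ENSMUSG00000007122, chromosome 1, 172209894 to 172219868, minus strand) held 145524 to 220518 in control, 122182 to 237457 in knockout and 136151 to 170923 in D489V. The ratio of Casq1 to Casq2 per kilobase had medians of 127 in control, 74.2 in knockout and 141 in D489V, and fell to 63.3 in knockout replicate 5 and 65.3 in knockout replicate 3. Pvalb (ENSMUSG00000005716, chromosome 15, 78191114 to 78206400, minus strand) held 529757, 468942, 373394, 456211 and 345151 in control, 548446, 465975, 279418, 297782 and 400993 in knockout and 543966, 466365, 422946, 347086 and 379345 in D489V. Knockout replicates 3 and 4, which were among the highest for Atp2a2, had the lowest Pvalb of all samples.

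In knockout against control, which asks how loss of the receptor gene in the muscle lineage changed the tissue, no member passed the test. In limma, 0 of 10 members passed and 0 had an unadjusted p under 0.05, and over all 15234 genes tested 0.00656% were called. Without knockout replicate 3 the members and pathway genes that passed also numbered 0. Casq2 had a log2 difference of 0.68 (95% interval -0.02 to 1.38, limma adjusted p 0.34) and Jph1 of 0.34 (95% interval -0.002 to 0.68, limma adjusted p 0.333). For Atp2a2 the interval ran from -1.004 to 2.24 and for Sln from -2.01 to 2.02, so these samples could not show even large differences in either. The intervals were narrower for Ryr1 (-0.15 to 0.68) and Casq1 (-0.55 to 0.43). The median log2 difference of the members was 0.21, against 0.01 over all genes tested. Groups did not overlap for 0 of the 10 members, against 2.24% of all genes.

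In D489V against control, the comparison with the allele described as active, 0 of 10 members passed in limma and 0 had an unadjusted p under 0.05, and 0.0587% of 15339 genes were called (0.0261% higher, 0.0326% lower). This comparison and the one before it share their 5 controls. Log2 differences ran from -0.25 for Casq2 (limma adjusted p 0.848) to 0.59 for Sln (limma adjusted p 0.817), with a median of -0.01 against 0.00 over all genes. The interval was -0.51 to 0.17 for Casq1 and -0.32 to 0.49 for Ryr1. For Cacna1s it was -0.42 to 0.28 and for Atp2a1 -0.57 to 0.73. No member had groups that did not overlap, against 2.16% of all genes.

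Knockout and D489V samples were also compared with each other, which does not involve the shared controls. Casq2 was higher in knockout, by 0.93 on the log2 scale (SE 0.25, 95% interval 0.38 to 1.48, limma adjusted p 0.0255), from 1328 ± 419 (SD, n = 5) in D489V to 2512 ± 704 (SD, n = 5) in knockout. The other 9 members did not pass. The member count, 1 of 10, is below the 20.8% called among 15299 genes, and 0 of 10 members had groups that did not overlap, against 13.9%. Without knockout replicate 3, the members that passed were Casq2 and Pln (limma adjusted p 0.0493 and 0.0185), against 15% of all genes. The Casq2 call was lost without D489V replicate 1 (limma adjusted p 0.0695), D489V replicate 2 (0.0638), knockout replicate 4 (0.05001) or knockout replicate 5 (0.0583), and was kept without knockout replicate 3 (0.0493). It was also lost when all 15 samples shared 1 fit (0.057), and over all 21 alternatives its adjusted p ran from 0.00654 to 0.0695.

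**Figure D2:**
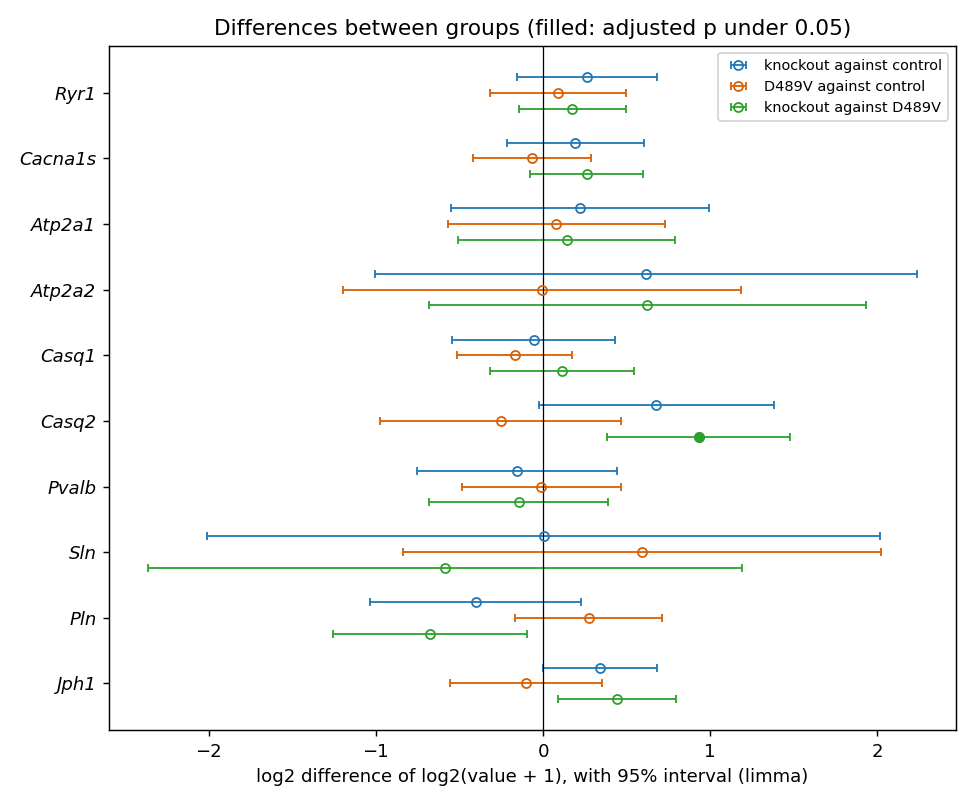
Log2 difference (limma on log2(value + 1)) with its 95% interval for each of the 10 genes, with each mutant group set against control and then against the other. The only filled point is Casq2 in knockout against D489V, at 0.93, and the intervals of Atp2a2 and Sln are the widest.

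Markers of other cells moved with the direct comparison of knockout and D489V. Of 6 adipocyte markers 5 were lower in knockout, and their summed normalized counts were 6001 to 9536 in knockout, 15727 to 57399 in D489V and 1706 to 31598 in control. All 5 Schwann cell markers were lower in knockout (5592 to 8825 summed, against 11173 to 45477 in D489V and 7862 to 12849 in control). So were all 4 endothelial markers (6509 to 10095 against 11886 to 13691 in D489V and 10785 to 15027 in control). Over all genes tested 10.3% were lower. Of 5 smooth muscle markers, 4 were tested and 2 were lower (5017 to 7293 against 7080 to 10544). Of 7 cardiac markers, which matter because the heart also uses Casq2, Atp2a2 and Pln, 4 were tested and 1 was lower. Lymph node markers summed to 13 to 3676 in knockout, 52 to 189 in D489V and 18 to 3805 in control, and of 6 listed, 4 were tested and 0 passed. Of 2 developmental myosin genes 1 was lower in knockout. Of 8 slow fibre and 8 fast fibre markers none passed in limma in any comparison, and the number with an unadjusted p under 0.05 was 0 for the slow list in each and 0, 0 and 1 for the fast list. The part of these cells in the Casq2 difference was not tested, and fewer cells of a type and less RNA per cell cannot be told apart in whole muscle. In knockout against control 0 Schwann cell, endothelial or adipocyte markers passed in limma. There, 3 of 5 Schwann cell, 4 of 4 endothelial and 0 of 6 adipocyte markers had an unadjusted p under 0.05, against 15.1% of all genes.

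Atp2a2 and Sln followed the slow myosin gene from sample to sample, whereas Casq2 and Pln did not pass the same test. Myh7 ranged from 1581 to 94986 normalized counts, with 0 of the 3 comparisons past the threshold. Across the 15 samples, log2 Atp2a2 had a Pearson r of 0.88 with log2 Myh7 (permutation p 2e-05, adjusted 2.75e-04; Spearman rho 0.92, permutation p 3e-05). For Sln and Myh7 r was 0.90 (permutation p 1e-05, the smallest the permutations can give, adjusted 1.83e-04; rho 0.93, permutation p 1e-05). Pvalb ran the other way, with r of -0.69 with Myh7 (permutation p 0.00372, adjusted 0.017; rho -0.65, permutation p 0.0101) and of -0.82 with Atp2a2 (permutation p 1.7e-04, adjusted 0.00156; rho -0.84, permutation p 1.6e-04). These are 55 relations in all, the 45 pairs of members and each member with Myh7, and 15 passed at an adjusted permutation p under 0.05, 11 of them positive. How often pairs of other genes pass was not measured, so no share over all genes stands beside this count.

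Within groups, after the group means were subtracted, r was 0.95 for Atp2a2 and Myh7, 0.90 for Sln and Myh7, -0.74 for Pvalb and Myh7 and -0.81 for Pvalb and Atp2a2. All 4 passed again (adjusted permutation p 3.67e-04, 0.00801, 0.0478 and 0.0139). Without the 2 samples farthest from the median of Myh7, knockout replicates 1 and 3, r was 0.92 for Atp2a2 and 0.90 for Sln. It was -0.56 for Pvalb and Myh7, which no longer passed (adjusted permutation p 0.199), so the call, though not the sign, rests on those samples. Pvalb and Atp2a2 kept r of -0.74 without control replicate 1 and knockout replicate 3 (adjusted permutation p 0.0344). Casq2 and Myh7 had r of 0.45 (permutation p 0.0884, adjusted 0.195; rho 0.53, permutation p 0.0455), which did not pass, and 0.66 within groups, which did (adjusted permutation p 0.0272). Casq2 and Atp2a2 had r of 0.74 (permutation p 0.00168, adjusted 0.00924; rho 0.73, permutation p 0.0027), and 0.65 without control replicate 1 and knockout replicate 3, which did not pass (adjusted permutation p 0.104). Pln and Myh7 had r of 0.00. Knockout replicate 1 held 1581 normalized counts of Myh7 and 1436 of Casq2. D489V replicates 1 and 2 held more Myh7 (23246 and 16602) but less Casq2 (933 and 812). D489V replicates 3 to 5 held more of both, with 20674 to 93311 of Myh7 and 1591 to 1669 of Casq2.

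**Figure D3:**
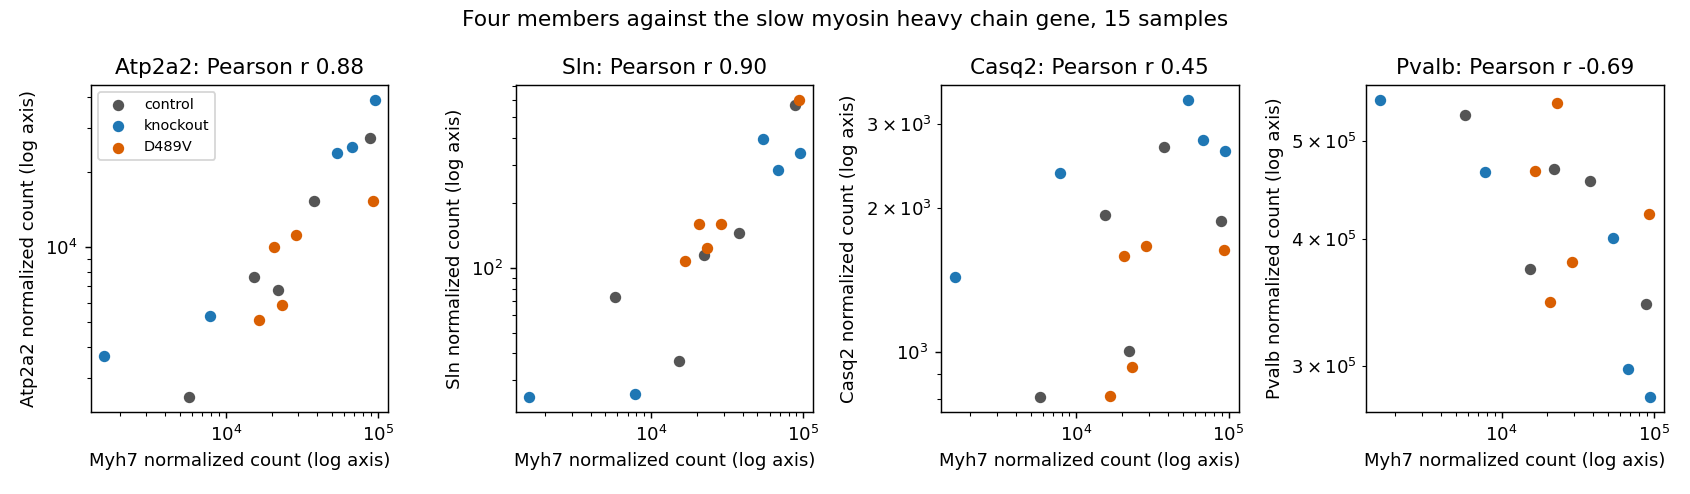
Atp2a2, Sln, Casq2 and Pvalb against Myh7, normalized counts on log axes, each point 1 of 15 samples coloured by group. Atp2a2 and Sln rise along Myh7 (r 0.88 and 0.90), Pvalb declines (r -0.69) and Casq2 is looser (r 0.45), with 4 of 5 knockout points above every D489V point.

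Markers of other tissue moved with this pattern. Control 5 and knockout 3 to 5, which held 4 of the 5 highest Sln values, had lymph node marker sums of 1096 to 3805 normalized counts, against at most 189 in the other samples. D489V replicate 3, which held the other, had a lymph node sum of 52 but a Schwann cell marker sum of 45477, against 11173 to 13627 in the rest of its group. The part of these tissues in the relations with Myh7 was not tested.

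With a slow fibre score of 8 genes as a covariate, Casq2 was 1.01 higher in knockout than in D489V on the log2 scale (limma adjusted p 0.00654). Atp2a2, whose difference without the covariate was 0.62 (95% interval -0.69 to 1.93, limma adjusted p 0.473), came to 0.91 and passed (limma adjusted p 0.019). Per kilobase, the ratio of Atp2a2 to Myh7 was 0.527 to 3.27 in knockout and 0.234 to 0.689 in D489V, with 0.433 to 0.704 in control. The highest of these ratios came from knockout replicate 1, the sample with the least Myh7.

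A second set of members, Ryr1, Cacna1s, Atp2a1 and Jph1, also varied together. Each of them was closer to a gene outside the members, named further below, so this variation was not particular to the set. Cacna1s and Atp2a1 had r of 0.90 (permutation p 1e-05, adjusted 1.83e-04; rho 0.91, permutation p 2e-05), Ryr1 and Cacna1s 0.90 (permutation p 1e-05, adjusted 1.83e-04; rho 0.93, permutation p 1e-05) and Ryr1 and Atp2a1 0.85 (permutation p 5e-05, adjusted 5.5e-04; rho 0.89, permutation p 2e-05). Within groups these were 0.92, 0.91 and 0.83, and without the 2 most extreme samples 0.85, 0.90 and 0.80, all past the threshold. Jph1 joined them, with r of 0.79 with Atp2a1, 0.79 with Ryr1 and 0.74 with Cacna1s (adjusted permutation p 0.00364, 0.00428 and 0.0095; rho 0.61, 0.73 and 0.62, permutation p 0.0177, 0.00293 and 0.0149). Of these 3, the relations with Atp2a1 and Cacna1s did not pass without 2 samples, control replicate 1 and D489V replicate 3 (r 0.51 and 0.56). Jph1 was also related to Casq2, with r of 0.68 (permutation p 0.00505, adjusted 0.0214; rho 0.67, permutation p 0.00746), which did not pass within groups (r 0.52, adjusted permutation p 0.2). Pvalb, Atp2a1 and Casq1 were not 1 block, since Atp2a1 had r of -0.22 with Pvalb (permutation p 0.445, adjusted 0.569; rho -0.21, permutation p 0.453) and 0.49 with Casq1 (permutation p 0.065, adjusted 0.155; rho 0.41, permutation p 0.133). Nor were the 2 pumps opposed, with r of 0.05 between Atp2a1 and Atp2a2 (permutation p 0.858, adjusted 0.926; rho -0.02, permutation p 0.934).

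**Figure D4:**
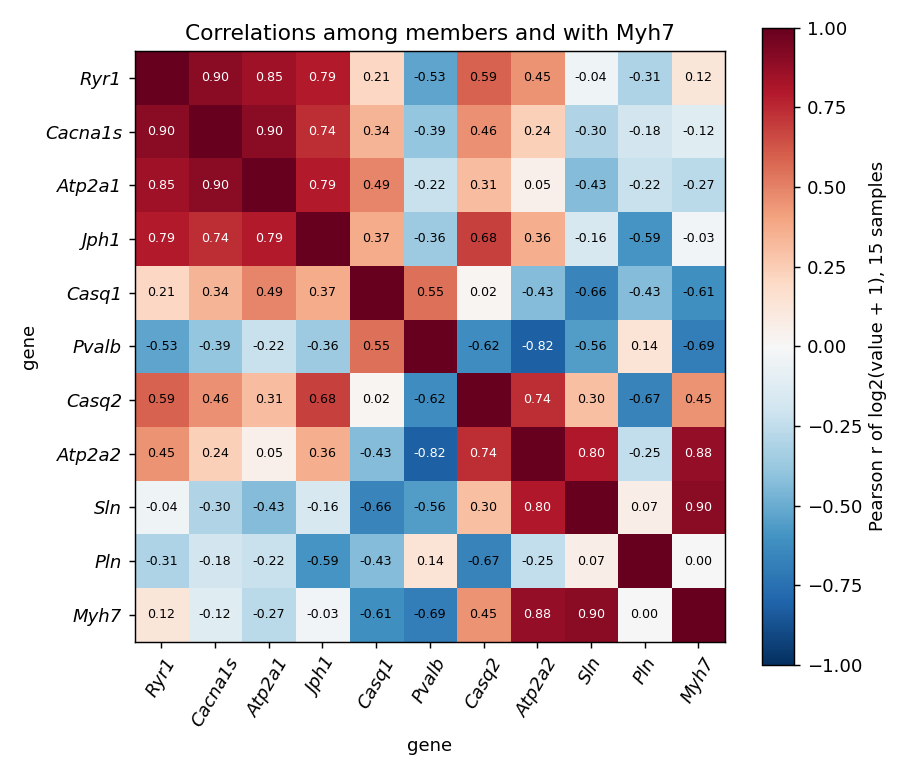
Pearson r of log2(value + 1) over 15 samples for each pair of members and Myh7, both axes listing genes. Ryr1, Cacna1s, Atp2a1 and Jph1 form a block at 0.74 to 0.90, Atp2a2, Sln and Myh7 a second at 0.80 to 0.90, and Pvalb is negative with Atp2a2 (-0.82).

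Across 12159 genes with a mean of 50 or more, the genes most like each member over the 15 samples were listed by Pearson r, as a description. Slow contractile genes led for Sln, with Tpm3 (slow tropomyosin, r 0.955), Tnnt1 and Tnnc1 (slow troponins, r 0.938 and 0.933). Ldhb, the lactate dehydrogenase subunit of oxidative tissue (r 0.968), Myoz2, a calcineurin-binding protein of slow fibres (0.957), and Idh2, a mitochondrial dehydrogenase (0.948), were nearest to Atp2a2. Mylpf, the fast regulatory light chain (r 0.947), was nearest to Pvalb, followed by Ccdc28b (0.883) and Tmem101 (0.88). For Casq2 the nearest was Lrp4, the agrin co-receptor of the neuromuscular junction (r 0.948), ahead of Agbl1 and Dnaja4, both at 0.939. For Atp2a1 it was Trim72, a membrane repair protein (r 0.97), followed by Pdzrn3 at 0.963. The nearest genes of the release machinery were Ddx23 for Ryr1 (r 0.972), Tmem248 for Cacna1s (0.963) and Pmpca for Jph1 (0.985), none of them a calcium gene. Casq1 and Pln had weaker nearest genes, Lingo3 (r 0.871) and Ankrd27 (0.904).

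Around the 10 members, 85 other genes of the pathway were listed in 5 groups, and 83 were tested. In knockout against control 0 of the 83 passed in limma and 15 had an unadjusted p under 0.05 (18.1%, against 15.1% of all genes tested), with a median log2 difference of 0.19. Genes with the smallest p in their lists included Dysf, dysferlin of membrane repair (log2 difference 0.51, limma adjusted p 0.296), Usp25 (0.44, 0.305), Micu2, a gatekeeper of mitochondrial calcium entry (0.28, 0.31), and Mef2c, a muscle transcription factor (0.31, 0.302). In D489V against control 0 of the 83 passed in limma and 4 had an unadjusted p under 0.05 (4.82%, against 9.43% of all genes), with a median of -0.02. There the smallest p in each list belonged to Mtmr14 (log2 difference 0.33, limma adjusted p 0.552), Stim2 (-0.19, 0.611), Micu2 (-0.29, 0.37), Slc8a3 (0.48, 0.347) and Camk2d (-0.36, 0.441).

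Between knockout and D489V, 25 of the 83 passed, 30.1% against 20.8% of all genes tested, and 21 were higher in knockout while 4 were lower. Over all genes 10.5% were higher and 10.3% lower. The median log2 difference of the 83 was 0.18 against 0.00 over all genes. The count moved with single libraries, and so did the share over all genes. Without D489V replicate 1, 9 passed (10.8%, against 9.26% of all genes), and without D489V replicate 2, 9 (10.8% against 10.1%). Without D489V replicate 3, 13 passed (15.7% against 13.2%). Among the knockout libraries, 14 passed without replicate 3 (16.9% against 15%), 14 without replicate 5 (16.9% against 14.2%) and 16 without replicate 1 (19.3% against 16.1%). In these 6 fits the share of pathway genes was thus close to that of all genes. It stayed further above in the remaining fits. Without knockout replicate 2 it was 27.7% against 18.5%, and without knockout replicate 4 it was 21.7% against 16.3%. Without D489V replicate 4 it was 36.1% against 24.4%, and without D489V replicate 5 it was 39.8% against 22.5%.

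Calcineurin and calmodulin kinase genes, which read the calcium signal, included Rcan1, the list gene with the smallest p. Of 17, 5 were higher in knockout and 1 lower (35.3% called, against 20.8% of all genes tested). Rcan1, a feedback inhibitor of calcineurin and a known target of its signal, held 3733, 2947, 3131, 3534 and 2821 normalized counts in knockout and 1147, 1628, 2004, 1769 and 1560 in D489V. Its groups did not overlap, which held for 13.9% of all genes tested. Rcan1 was 1.01 higher on the log2 scale (95% interval 0.71 to 1.31, limma adjusted p 0.00218). Controls spanned both, at 1024, 1436, 2094, 4672 and 3707. Rcan2, its relative, was 0.75 higher (limma adjusted p 0.00516) and Camk2d, a calmodulin kinase subunit, 0.63 higher (limma adjusted p 0.00518), while Nfatc4, a calcineurin-dependent transcription factor, had a log2 difference of -0.66 (limma adjusted p 0.0187).

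Of 24 triad genes, 7 were higher in knockout and 1 lower (33.3% called, against 20.8% of all genes tested). Dysf was 0.80 higher (limma adjusted p 0.00398), with knockout samples at 4464 to 6683 normalized counts, D489V samples at 2818 to 3971 and controls at 3367 to 5777. Cacna2d1, the accessory subunit of the tubule channel, was 0.47 higher (limma adjusted p 0.0136) and Homer2, a scaffold protein, 0.79 higher (limma adjusted p 0.019). Fkbp1b, a release channel binding protein, had a log2 difference of -1.04 (limma adjusted p 0.0268) at only 6 to 13 normalized counts in knockout and 15 to 23 in D489V.

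Of 15 tested genes of reticulum uptake and store, 3 were higher and 1 lower (26.7% called, against 20.8% of all genes tested). Stim2 and Stim1, sensors of the calcium store, were 0.47 and 0.51 higher (limma adjusted p 0.00726 and 0.0405), Srl, sarcalumenin, was 0.64 higher (limma adjusted p 0.0481), and Sri, sorcin, had a log2 difference of -0.28 (limma adjusted p 0.039). Stim1 and Srl overlapped between the groups, whereas Stim2 did not, at 1083 to 1435 normalized counts in knockout and 847 to 1009 in D489V. Of 10 mitochondrial uptake genes 2 were higher and 0 lower, a share of 20%, near the 20.8% of all genes tested. Among them Micu2 was 0.57 higher (limma adjusted p 0.00415), at 1696 to 2139 normalized counts in knockout and 1108 to 1385 in D489V, without overlap. Groups did not overlap for 13.9% of all genes tested.

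Of 17 tested genes of excitation and ion transport at the plasma membrane, 4 were higher and 1 lower (29.4% called, against 20.8% of all genes tested). Atp2b1, a calcium pump of the plasma membrane, was 0.32 higher (limma adjusted p 0.0288), Kcnma1, a calcium-activated potassium channel, 0.54 higher (limma adjusted p 0.0346), and Fxyd1, phospholemman, had a log2 difference of -0.38 (limma adjusted p 0.0285). The marker sums of fat, nerve and vessel cells given above also differed between knockout and D489V. Their part in the differences of the pathway genes was not tested.

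**Figure D5:**
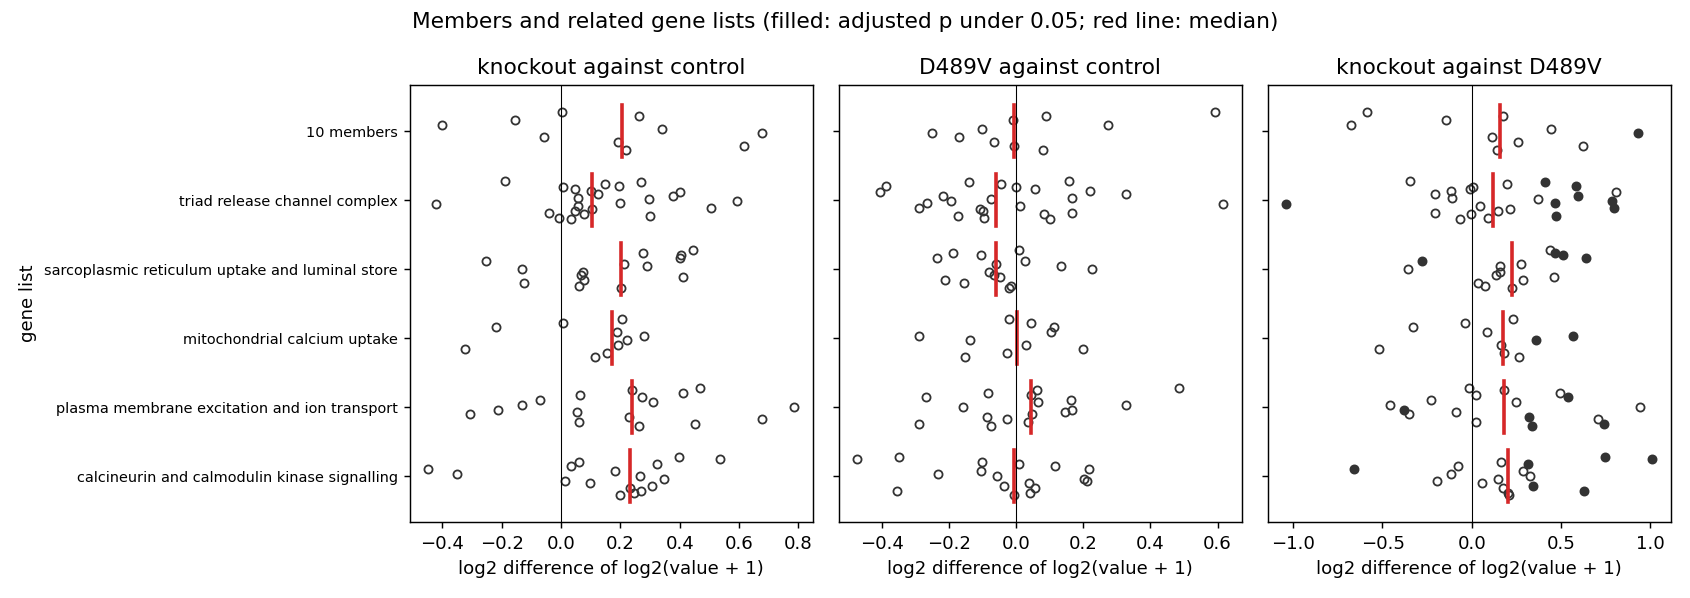
Log2 differences (log2(value + 1), limma) of the members and of the genes in 5 related lists, 1 panel per comparison, filled where the adjusted p is under 0.05, with list medians as red lines. Filled points occur in knockout against D489V alone, where 21 of the 25 called list genes and Casq2 lie to the right of 0.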

How the data were processed

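The deposited tables hold, per the name the authors gave them, normalized counts, a score that the authors rounded to whole numbers. The submitters' processing notes name Trim Galore 0.6.0, cutadapt, FastQC, STAR 2.7.0e, DESeq2 1.26.0 and GRCm38, without roles. The extract protocol in the labels gives poly(A) RNA and a directional library kit. Counting, annotation and normalization method are not given in the sources used here. There were 2 tables of 55536 genes, whose 5 control columns were identical. Over genes above 0 everywhere, sample values had median ratios of 1.0069 to 1.0097 to the geometric mean, so both tables were used on 1 scale. Spearman correlations between samples were 0.957 to 0.993. Names came from the tables, coordinates and exon lengths from GENCODE M21, and promoters from RefSeq. Each 5 against 5 comparison was fitted with limma 3.58.1 (R 4.3.3; two-sided, moderated by eBayes with a trend). Values entered as log2(value + 1), a scale that understates changes of low genes, for genes at 10 or more in at least 5 of 10 samples. A gene was called where the p adjusted by Benjamini-Hochberg over all genes tested was under 0.05. The fit was tested on simulated data. Correlations used 100000 two-sided permutations. Correlations, sums and figures were made in Python 3.11.15. Named genes are the members, Pdgfrb, myosin references, and per pathway list the called genes with the smallest p (at most 3 in each direction) or, with none called, the 1 with the smallest p. Also named are the 3 genes most correlated with each member, of which fewer are given for some. A few genes that this rule names are not reported here. Xist, Cep85l, Gm47644, the cardiac markers and Mrln fall outside that rule. Members and lists were chosen with earlier results of these data known. Strit1 was listed but not matched by name. Alternatives changed the pseudocount, filter, scaling, variance model, weights, samples in the fit, replicate block and slow fibre covariate, or left out a replicate; fits on read counts were not made, since the values are normalized.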

Additional observations from a re-analysis of the deposited data

Results flagged for a closer look

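In D489V, Sln of replicate 3 stood apart from its group, at 602 normalized counts against 107 to 160 in the other 4 samples. On the log2 scale its gap to the nearest sample was 0.768 of the group's range, above the limit of 0.71 for 5 samples. The same sample held 93311 normalized counts of Myh7, against 16602 to 28841 in the other D489V samples, and 15404 of Atp2a2, against 5136 to 11243. Its Schwann cell marker sum was 45477, against 11173 to 13627 in the others. Of 36 groups of values looked at in this way (12 genes in 3 groups), 1 stood apart, against 1.8 by chance.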

How the results depend on the processing

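In knockout against control and in D489V against control, 0 members and 0 pathway genes passed under each of the 21 alternatives, leaving out 1 replicate included (0 to 0). In knockout against D489V, 1 member passed as reported. The number was 0 with 1 fit over all 15 samples, 3 with array weights (Casq2, Jph1 and Pln), 2 with the slow fibre score, and 0 to 2 without 1 replicate. The 25 pathway genes became 15 with 1 fit over all 15 samples, 15 with no filter on low values and 9 to 33 without 1 replicate. A replicate block let 0, 0 and 1 members and 0, 0 and 18 pathway genes pass in the 3 comparisons. In knockout against D489V the number of all genes called also moved, from 1398 to 4458 over the alternatives. The share over all genes is not set beside each count here, so these counts do not single out members or pathway genes. Deviations of samples sharing a number had r between -0.21 and 0.24, between -0.4 and 0.39 and between -0.11 and 0.1, and 2, 2 and 1 of 5 matched their own number best. These values show no clear pairing by number, but 5 samples per group cannot exclude it. Of the 55 correlations, 13 passed with group means subtracted and 8 without the 2 extreme samples, where fewer samples entered. Casq2 in knockout against D489V, the called member, kept its direction in all 21 alternatives, and the direction of single pathway genes was not followed. Among member values that did not pass, signs changed under quantile normalization for Atp2a1 in D489V against control (-0.036) and for Casq1 and Pvalb in knockout against D489V (-0.032 and 0.011). In D489V against control Pvalb changed sign with array weights (0.017) and the slow fibre score (0.02). In knockout against control Sln did so with array weights (-0.24) and upper-quartile rescaling (-0.055). Leaving out 1 replicate gave, in D489V against control, -0.05 to 0.21 for Atp2a1, -0.46 to 0.40 for Atp2a2, -0.17 to 0.012 for Cacna1s, -0.233 to 0.035 for Jph1, -0.097 to 0.066 for Pvalb and -0.034 to 0.163 for Ryr1. In knockout against control it gave -0.18 to 0.06 for Casq1 and -0.42 to 0.56 for Sln, and in knockout against D489V -0.01 to 0.23 for Casq1. For these shifts the cause was not tested. All-gene counts, 1, 9 and 3181 as reported, ranged over the alternatives from 1 to 17, 1 to 97 and 1398 to 4458. Sln and Pln, with few counts, and Atp2a2, with a wide spread within groups, limit what 5 samples can show.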
